A study of Mus musculus with 24 samples.

Results

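The 7 Tcra V segments that lie farthest from the J array, TRAV1, TRAV2, TRAV3-1, TRAV5-1, TRAV6-1, TRAV7-1 and TRAV6-2, were followed across 3 wild-type and 3 Satb1 knockout libraries. They were taken by name and position and make up 7 of the 117 V segments listed for this chain. The libraries hold T cell receptor alpha transcripts of thymocytes from C57BL/6 mice aged 4 to 12 weeks, amplified from total RNA by 5′ RACE with a primer in the constant region. Wild-type mice were compared with mice whose genotype is labelled Satb1-/-. The series design calls the same animals Satb1cKO, a conditional knockout, and the deleter strain is not given in the sources used here. Satb1 encodes a nuclear protein that organises chromatin and is abundant in thymocytes. Its own transcript is not measured in these tables, so the labels could not be checked against it.

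The alpha chain gene is assembled in double-positive thymocytes by joining a V segment to a J segment. The first joins tend to use V segments close to the J array and J segments at its 5′ end. Because the V segments all lie upstream of the J array, a thymocyte can join again, each time deleting the earlier join and taking a V segment farther upstream and a J segment farther downstream. The most distal V segments are therefore known as segments reached in late rounds. TRAV1 is also the V segment of mucosal-associated invariant T cells, which pair it with TRAJ33.

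By gene name, all 7 were found on the forward strand of chromosome 14 in GENCODE M21 (GRCm38); the build used for the deposited tables is not given in the sources used here. TRAV1 (52427928 to 52428876) lies 1728 kb upstream of TRAJ58, the most 5′ J segment listed, and is separated from TRAV2 by 138 kb. TRAV2 (52567198 to 52568051), TRAV3-1 (52580665 to 52581213), TRAV5-1 (52622566 to 52623082), TRAV6-1 (52638515 to 52638962), TRAV7-1 (52654817 to 52655328) and TRAV6-2 (52667411 to 52667864) follow towards the J array. TRAV6-2 still lies 1489 kb from TRAJ58. Each has 2 annotated exons, a short leader exon and a second exon that holds the variable region.

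The last 60 bases of each GENCODE transcript are shown because this end is the part that is joined to a J segment. Capitals mark the codon of the conserved cysteine with which the third hypervariable loop begins, and the 10 to 13 bases after it are what the germline V segment adds to that loop.
TRAV1: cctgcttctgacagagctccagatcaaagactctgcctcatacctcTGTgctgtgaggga
TRAV2: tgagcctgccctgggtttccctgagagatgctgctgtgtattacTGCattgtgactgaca
TRAV3-1: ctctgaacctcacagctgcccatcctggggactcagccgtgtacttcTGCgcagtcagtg
TRAV5-1: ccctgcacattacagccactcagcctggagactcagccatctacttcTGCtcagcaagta
TRAV6-1: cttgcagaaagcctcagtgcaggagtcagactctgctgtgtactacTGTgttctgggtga
TRAV7-1: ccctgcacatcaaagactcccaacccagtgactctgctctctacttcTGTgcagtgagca
TRAV6-2: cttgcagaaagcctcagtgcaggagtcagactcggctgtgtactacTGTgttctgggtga

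TRAV6-1 and TRAV6-2 differ in these 60 bases by the single substitution T34G, counted from the first base shown with the base of TRAV6-1 given first. Over the last 270 bases they were 95.6% identical, so reads of one may have been assigned to the other. TRAV3-1 was 97.8% identical to TRAV3-4, which lies outside the group, and TRAV7-1 was 94.7% identical to TRAV7D-4 over 266 aligned bases. Values of TRAV3-1, TRAV6-1, TRAV6-2 and TRAV7-1 are therefore less certain than those of TRAV1, TRAV2 and TRAV5-1, whose nearest relatives outside the group were 80.4%, 79.0% and 83.6% identical over 214, 210 and 268 aligned bases.

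Values are percentages of all V–J assignments in a library, and the share of a V segment is its sum over the J segments. Depth is not stated. The smallest value above 0 was 0.0158%, 0.0157% and 0.0241% in wild-type replicates 1 to 3, and 0.0180%, 0.0593% and 0.117% in knockout replicates 1 to 3. Knockout replicates 2 and 3 were thus the coarsest, and they listed 43 and 46 of the 117 V segments at 0, against 13 in every wild-type library. Knockout replicate 1 listed 33 distal V–J pairs, against 5 and 3 in knockout replicates 2 and 3, and 30 of the 33 were also listed in wild-type replicate 1. Whether those joins arose in the knockout cells was not tested, and results are given with and without this library. Nothing in the labels ties each replicate to its own mouse, so p-values measure only the spread between these libraries, which may be technical. In such bulk samples fewer cells using a segment and less transcript per cell cannot be told apart.

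Together the 7 distal V segments held a larger share in each wild-type library than in any knockout library. They made up 3.15%, 3.71% and 2.26% of wild-type replicates 1 to 3, and 0.613%, 0.356% and 0.352% of knockout replicates 1 to 3. The means were 3.04% ± 0.731 and 0.440% ± 0.150 (SD, n = 3 each), a difference of -2.60 percentage points. Only pairs of at least 0.117%, the least that knockout replicate 3 could list, were then kept and rescaled to percentages of the kept pairs. The difference was -0.85, from wild-type sums of 2.09%, 0.364% and 0.603% and knockout sums of 0%, 0.145% and 0.352%. Without rescaling, wild-type replicate 2 kept only TRAV5-1 with TRAJ40 (0.126% of the library). Wild-type replicate 3 kept only TRAV1 with TRAJ30 (0.144%) and with TRAJ7 (0.120%). Both libraries then lay below the 0.352% of knockout replicate 3, and wild-type replicate 1 lay above it. The separation of the genotypes thus did not hold among pairs that every library could list. No test was made of the summed share, since the segments were chosen with earlier results of these data known. Without knockout replicate 1 the knockout mean was 0.354%. All 7 were listed above 0 in wild-type replicates 1 and 2 and 6 of them in replicate 3, while 6, 2 and 2 were listed above 0 in knockout replicates 1 to 3.

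In wild type the order of the shares was TRAV1, TRAV5-1, TRAV7-1, TRAV6-1, TRAV3-1, TRAV2 and TRAV6-2, and the ranges of neighbours in this order overlapped throughout. TRAV1 ranked 35th of the 117 V segments, TRAV5-1 42nd and TRAV7-1 47th, while TRAV6-2 ranked 94th. TRAV1, TRAV5-1 and TRAV7-1 together accounted for most of the sum, with 33.3%, 24.6% and 19.5% of its wild-type mean. Position within the group therefore did not order the shares, since TRAV2, next to TRAV1, was among the rarest.

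TRAV1 held 1.47%, 0.912% and 0.650% of wild-type replicates 1 to 3 and 0.235% of knockout replicate 1, and was listed at 0 in knockout replicates 2 and 3. Its lowest wild-type share lay above the smallest value that any knockout library could list. The means were 1.01% ± 0.421 and 0.0782% ± 0.135 (n = 3 each). The log2 fold change was -4.62 ± 1.10 (SE) on the log2(percent + 0.0157) scale, with a limma adjusted p of 0.0521, just short of the threshold of 0.05. With 2 of the 3 knockout values at 0 the pseudocount largely sets this fold: it was -2.67 with the larger pseudocount and -5.96 with the smaller one, and the other distal segments moved in the same way, TRAV3-1 from -1.32 to -4.55. Without knockout replicate 1 the limma adjusted p was 0.00154, but the remaining knockout values were all 0 and so had no spread. Without knockout replicate 3 it was 0.0489. With each library's median subtracted 0.0451, with no filter on low shares 0.0446, and with the larger pseudocount of 0.117% it was 0.000143. TRAV1 was not called without wild-type replicate 1, 2 or 3 (limma adjusted p = 0.201, 0.252 and 0.173) or without knockout replicate 2 (0.105). Nor was it called with the smaller pseudocount (0.121), with pairs of at least 0.117% only (0.215) or with each pair counted once (0.265). Over all alternatives the limma adjusted p ranged from 0.000143 to 0.265, and the sign was negative in each.

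TRAV5-1 held 0.856%, 0.881% and 0.505% of wild-type replicates 1 to 3, and 0.180%, 0.297% and 0% of knockout replicates 1 to 3. The groups did not overlap, and the knockout mean of 0.159% ± 0.149 did not rest on replicate 1 alone, being 0.148% without it. The log2 fold change was -2.91 ± 1.10 (SE, limma adjusted p = 0.136). For TRAV7-1 the wild-type shares were 0.285%, 0.849% and 0.650% and the knockout shares 0.0902%, 0% and 0.117%, again without overlap. Its knockout replicate 3 value was a single V–J pair at the smallest value of that library. The log2 fold change was -3.20 ± 0.910 (SE, limma adjusted p = 0.0639). Both were called with the larger pseudocount (limma adjusted p = 0.00913 for TRAV5-1 and 0.00538 for TRAV7-1). TRAV7-1 was also called without knockout replicate 3 (limma adjusted p = 0.0357).

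TRAV3-1 held 0.111%, 0.346% and 0.193% of wild-type replicates 1 to 3, and 0.0361%, 0% and 0% of knockout replicates 1 to 3. The least that knockout replicate 3 could list was 0.117%, above the share of wild-type replicate 1. A share of that size was thus not detectable there. The log2 fold change was -3.18 ± 0.697 (SE, limma adjusted p = 0.0456). It was the sole V segment of the chain called lower, 1.19% of the 84 tested, and calls in either direction made up 4.76%. This call was lost with each library's median subtracted (limma adjusted p = 0.0678), with a smaller (0.0958) or larger pseudocount (0.0598), with each pair counted once (0.151), and without wild-type replicate 1 (0.175) or knockout replicate 2 (0.0884). Without wild-type replicate 2 or 3 the segment no longer reached the filter of a mean share of 0.1% and was not tested. Its knockout mean of 0.0120% lay below that filter, which it passed only through its wild-type mean of 0.217%.

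The wild-type shares of TRAV6-1 were 0.222%, 0.409% and 0.0963%, and its knockout shares 0.0541%, 0.0593% and 0% (log2 fold change -2.37 ± 0.813, SE, limma adjusted p = 0.117). The groups did not overlap, but the share in wild-type replicate 3 lay below the least that knockout replicate 3 could list (0.117%). TRAV2 overlapped between genotypes through knockout replicate 3. Its wild-type shares were 0.0792%, 0.236% and 0.168%, and its knockout shares 0.0180%, 0% and 0.234% (log2 fold change -1.68 ± 1.03, SE, limma adjusted p = 0.307). The replicate 3 value consisted of 2 pairs, each at the smallest value of that library, and without it the limma adjusted p was 0.0327. TRAV6-2 held 0.127%, 0.0787% and 0% of wild-type replicates 1 to 3, and every knockout library listed it at 0. It did not reach the filter and was not tested. Its wild-type mean of 0.0685% lies below the smallest value of knockout replicate 3, where such a share was not detectable.

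**Figure D1:**
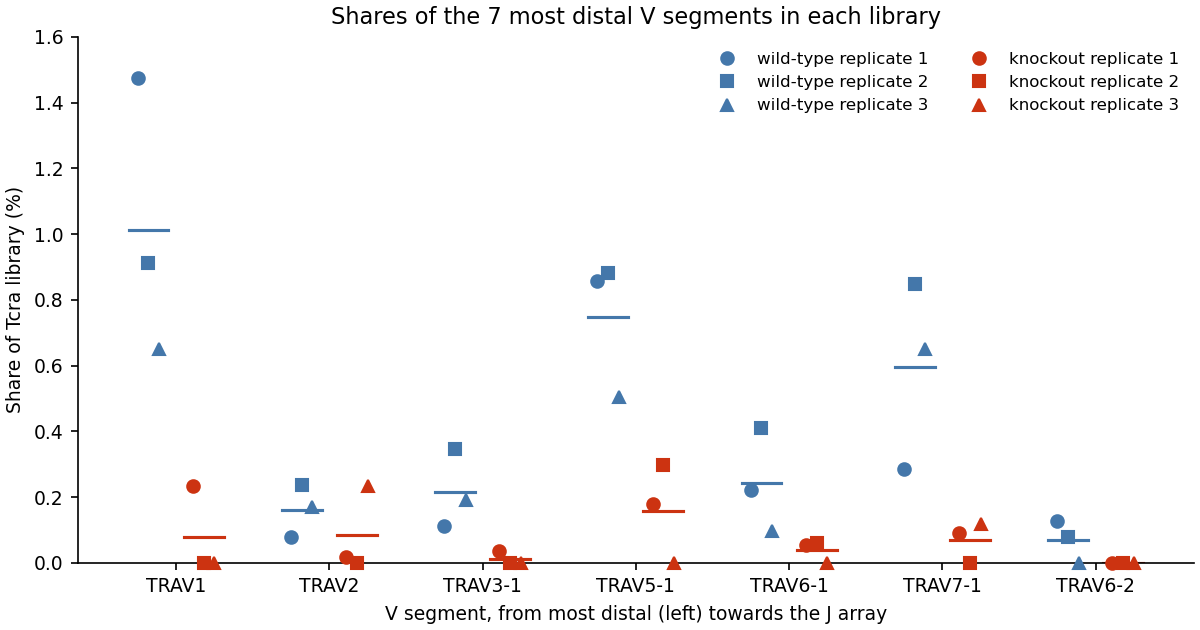
Share of each Tcra library (%, y axis) held by the 7 most distal V segments (x axis, most distal left); each symbol is 1 library and horizontal lines are means of 3. TRAV1 ranges from 0.650% to 1.47% in wild type and reaches at most 0.235% in the knockout, while TRAV2 overlaps between genotypes through knockout replicate 3.

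In 5 of the 7 segments, TRAV1, TRAV3-1, TRAV5-1, TRAV6-1 and TRAV7-1, every knockout library lay below every wild-type library, a pattern shown by 30.8% of all 117 V segments listed. For TRAV3-1 and TRAV6-1 the lowest wild-type shares, 0.111% and 0.0963%, lay below the least that knockout replicate 3 could list (0.117%). Any listing of them in that library would have overlapped, so its 0 could not show a lower share. Of the 6 segments that passed the filter 1 was called lower and 0 higher. All of these but TRAV5-1 had a knockout mean below 0.1%. TRAV1, TRAV3-1, TRAV6-1 and TRAV7-1 passed the filter only through their wild-type shares. TRAV2 passed it only with its share of 0.234% in knockout replicate 3 included. A count or median over the 6 is therefore a description. The median log2 fold change of the 6 was -3.04, against -0.73 over all 84 V segments tested, of which 63 lay below 0. Relative to each library's median, which moved the median of all V segments to -0.02, the values were -3.91 for TRAV1, -0.98 for TRAV2, -2.47 for TRAV3-1, -2.20 for TRAV5-1, -1.66 for TRAV6-1 and -2.50 for TRAV7-1. Without knockout replicate 1 the limma adjusted p was 0.0105 for TRAV3-1, whose remaining knockout values were all 0. It was 0.0601 for TRAV7-1, 0.102 for TRAV6-1, 0.126 for TRAV5-1 and 0.470 for TRAV2, with every sign negative. On the scale relative to each library's median TRAV1 alone of the 6 was called, in place of TRAV3-1.

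The 10 V segments that follow towards the J array, from TRAV7D-2 to TRAV6D-6, held 1.97%, 2.44% and 2.50% of wild-type libraries and 0.848%, 2.19% and 0.586% of knockout libraries. Their groups overlapped through knockout replicate 2. Of the 5 tested 0 rose and 0 fell, with a median log2 fold change of -1.29, or -0.59 relative to each library's median. The difference between these segments and the 7 distal ones was not tested.

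**Figure D2:**
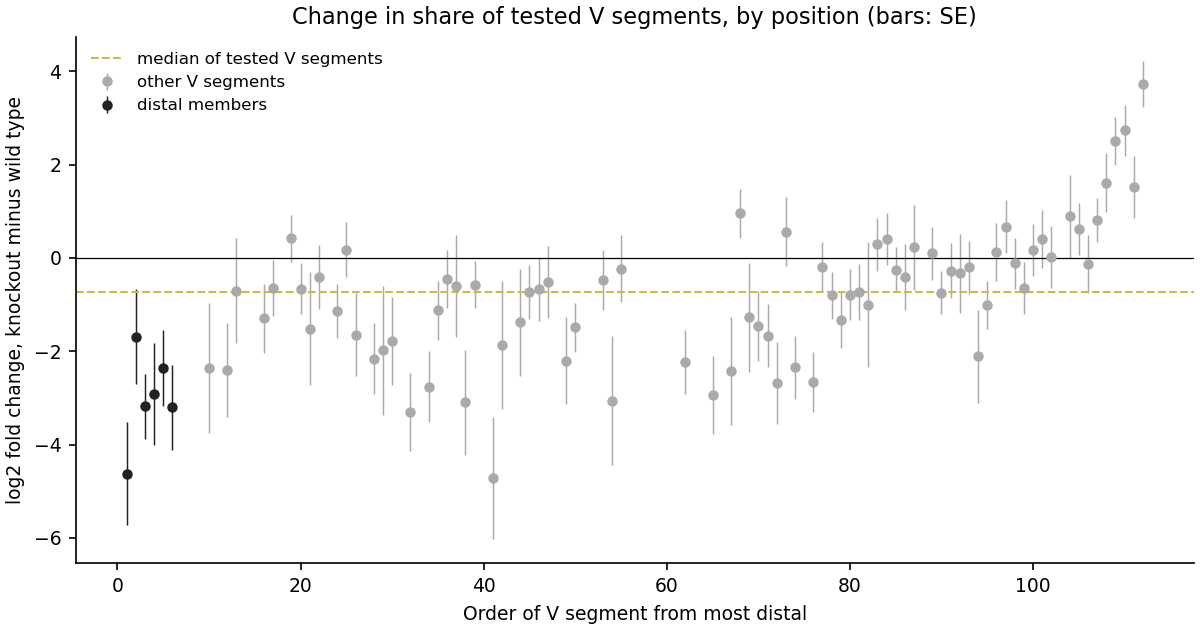
log2 fold change in share, knockout minus wild type (y axis, bars are SE), for tested V segments with a position, ordered from the most distal (x axis). The 6 distal segments tested lie between -4.62 and -1.68, all below the dashed line at the median of -0.73. TRAV1, TRAV3-1, TRAV6-1 and TRAV7-1 passed the filter only through their wild-type shares, and TRAV2 only with its knockout replicate 3 share included.

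The V segments whose shares varied most like the distal ones over the 6 libraries, by Pearson r of log2 values with the mean of the 7, were TRAV4D-4 (0.965), TRAV3D-3 (0.956), TRAV7-4 (0.936), TRAV7-3 (0.918) and TRAV14D-3-DV8 (0.913), among 78 ranked. They lie at places 34, 32, 76, 74 and 41 of 114 positioned V segments, so a likeness of this kind was not limited to neighbours. The shares of TRAV3D-3 were 4.39%, 4.47% and 2.36% in wild type, against 1.17%, 0.297% and 0.117% in knockout libraries. TRAV14D-3-DV8 went from 1.52%, 1.02% and 1.40% to 0.487% in knockout replicate 1 and, like TRAV1, was listed at 0 in the other two. These values describe 6 libraries in which the V segments share depth and genotype. By wild-type J profile over the 43 J segments, the most alike of 83 V segments were TRAV7-4 (r = 0.720), TRAV7-3 (0.695), TRAV12N-2 (0.680), TRAV14N-3 (0.674) and TRAV14D-1 (0.636), so that TRAV7-4 and TRAV7-3 were among the 5 most alike by both measures.

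The second question was which J segments the distal V segments had joined. In wild type they were joined less to 5′ J segments, here TRAJ42 to TRAJ58, than the other V segments of the same library were. Of the distal joins 10.1%, 12.3% and 13.8% used a 5′ J segment in wild-type replicates 1 to 3, against 30.1%, 28.2% and 31.5% of the joins of all other V segments. The middle J segments (TRAJ22 to TRAJ41) took 44.7%, 48.3% and 55.3% of distal joins, a mean of 49.4% ± 5.39 against 38.6% ± 3.93 for the others (SD, n = 3). Those at the 3′ end, TRAJ2 to TRAJ21, took 45.2%, 39.4% and 30.9%, against 34.6%, 34.3% and 25.6%. In each wild-type library the distal segments thus stood below the others for 5′ J segments and above them for both other classes. A high 3′ share was not limited to the distal segments. The 10 V segments that follow towards the J array had 3′ shares of 48.4%, 41.9% and 28.8%, above the distal ones except in replicate 3. Their 5′ shares of 19.4%, 21.9% and 28.8% lay above the distal ones each time. Their middle shares of 32.3%, 36.1% and 42.3% lay below the distal ones each time. These differences were not tested.

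By single J segment, the distal share lay below that of the other V segments, without overlap of the 3 libraries, for 8 of the 13 5′ J segments: TRAJ58, TRAJ57, TRAJ56, TRAJ53, TRAJ47, TRAJ45, TRAJ43 and TRAJ42. The other 5 overlapped and none lay above. TRAJ45 took 0.503%, 0.424% and 1.06% of distal joins, against 2.36%, 2.45% and 2.39% of the others. Each of these distal values was a single V–J pair at the smallest value of its library. Of the 8, only TRAJ47 and TRAJ45 had a distal join in all 3 wild-type libraries, so these single values lie near the least that could be listed. TRAJ34, in the middle of the array, was the single J segment with distal values wholly above the others, at 2.51%, 2.97% and 4.26% against 1.29%, 1.99% and 1.92%. TRAJ37, also a middle J segment, lay wholly below, at 2.01%, 2.54% and 2.13% against 3.04%, 3.48% and 4.16%. The other 14 of the 16 middle J segments overlapped. Among the 14 3′ J segments 13 overlapped and TRAJ18 lay below. The highest distal mean was that of TRAJ31, with 7.26% ± 2.64 against 5.01% ± 0.225 (SD, n = 3), and the groups overlapped.

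**Figure D3:**
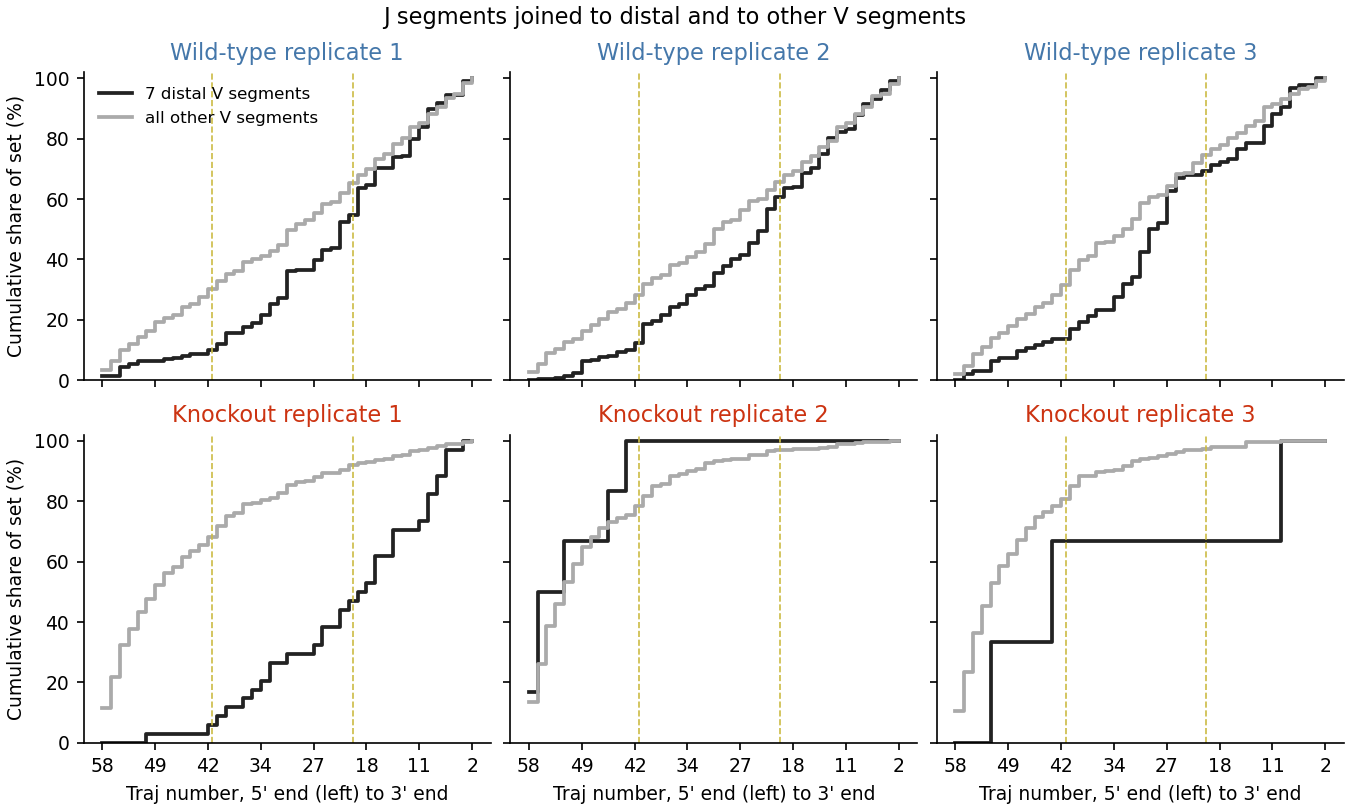
Cumulative share (%, y axis) of joins along the listed J segments from the 5′ end (x axis, Traj number), for the 7 distal V segments (black) and all other V segments (grey), 1 panel per library; dashed lines separate 5′, middle and 3′ J segments. In wild type the black curve reaches 10.1% to 13.8% at the first dashed line, and in knockout replicate 1 it reaches 5.88% while the grey curve reaches 68.1%.

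The mean Traj number of the distal joins was 24.4, 24.9 and 27.6 in wild-type replicates 1 to 3, against 30.0, 29.6 and 32.4 for all other V segments, where a lower number is nearer the 3′ end. For single V segments this was tested with limma, as the mean Traj number of a V segment minus that of all others in the same wild-type library, over the 89 V segments above 0 in all 3 libraries and with a mean of at least 0.1%. TRAV2 was called lower, by -12.8, -3.95 and -13.6 in replicates 1 to 3, with a mean of -10.1 ± 2.36 (SE, limma adjusted p = 0.0463). Lower calls made up 3.37% of the 89, and TRAV2 ranked second from the lowest. The call rests on few pairs, 3, 12 and 5 above 0. It was lost with the rank of the J segment in place of its number (limma adjusted p = 0.0543), without a filter (0.0906), with each pair counted once (0.236), and without wild-type replicate 1 (0.0799) or replicate 3 (0.152).

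TRAV7-1 had a mean difference of -7.48 ± 1.98 (SE, limma adjusted p = 0.0520), from -3.10, -10.1 and -9.28, and was called without wild-type replicate 1 (0.0344). TRAV1 had -5.02 ± 1.58 (SE, limma adjusted p = 0.0866), from -6.22, -3.24 and -5.59. The difference was thus negative in every wild-type library for TRAV1, TRAV2 and TRAV7-1, 3 of the 6 tested, a pattern shown by 33.7% of the 89 V segments. TRAV3-1 (-0.70), TRAV5-1 (-1.67) and TRAV6-1 (-2.78) had mixed signs between libraries, with limma adjusted p of 0.816, 0.636 and 0.368. TRAV6-2, with no join in wild-type replicate 3, was not tested.

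Over the listed V segments, leaving delta V segments aside, the mean Traj number was higher for V segments nearer the J array. Spearman's rho of position order with mean Traj number was 0.563, 0.466 and 0.447 in wild-type replicates 1 to 3, across 86 V segments that share a library and are not independent. The 3 J-proximal segments TRAV17, TRAV19 and TRAV21/DV12 were called higher by limma, by 14.4, 17.8 and 15.9. The 10 V segments next to the distal ones had a mean Traj number of 25.2, 26.7 and 29.9, a little above the distal value of the same library each time. That difference was not tested.

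**Figure D4:**
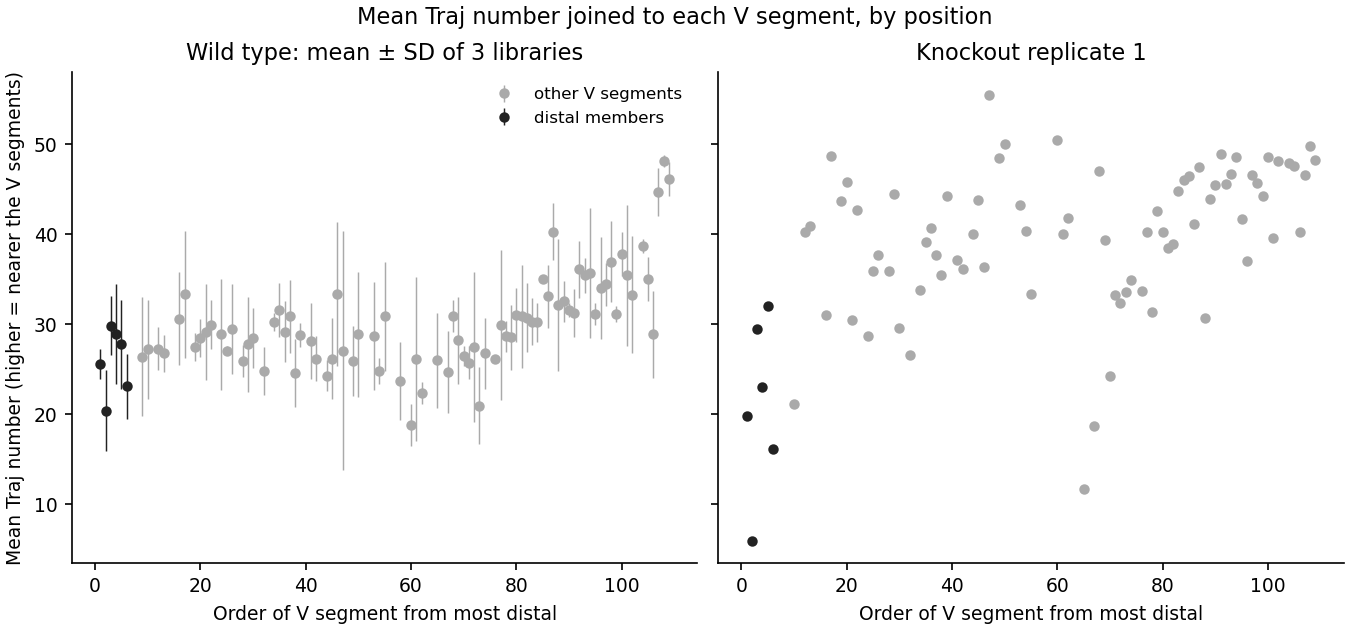
Mean Traj number of the joins of each V segment (y axis) by order from the most distal (x axis), for V segments above 0 in all 3 wild-type libraries with a mean share of at least 0.1%; left, wild-type mean with SD of 3 libraries, right, knockout replicate 1. The 6 distal segments shown (black) lie between 20.4 and 29.8 in wild type and between 6.00 and 32.0 in knockout replicate 1. There the lowest is TRAV2 with 1 pair and the highest TRAV6-1 with 3, all at the smallest value of that library.

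The 7 V segments and 43 J segments allow 301 pairs, of which 170 were above 0 in at least 1 wild-type library, 18 in all 3 and 96 in exactly 1. Of the 18 found in all 3 libraries 12 used a middle J segment, 5 a 3′ J segment and 1 a 5′ J segment. TRAV5-1 had 7 of them and TRAV7-1 had 5. No distal pair reached the filter of a mean share of 0.1% over the 6 libraries, so 0 were among the 202 pairs tested with it, of which 35.6% were called. The highest wild-type mean, 0.0843%, was that of TRAV1 with TRAJ17.

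For each V segment the 3 pairs with the highest wild-type means are given. TRAV1 with TRAJ17 held 0.158%, 0.0944% and 0% of wild-type replicates 1 to 3, and TRAV1 with TRAJ31 held 0.158%, 0.0315% and 0.0481%. Both stood at 0.0180% in knockout replicate 1 and at 0 in the other knockout libraries. TRAV1 with TRAJ21, at 0.222%, 0.0157% and 0%, was high in wild-type replicate 1 alone. The invariant pair TRAV1 with TRAJ33 was listed at 0.0158%, 0.0157% and 0% in wild type and at 0 in the knockout, where no library could list a value that small.

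TRAV5-1 with TRAJ31 held 0.0634%, 0.0629% and 0.0963% of wild-type libraries, and all 3 knockout libraries listed it at 0. Without a filter it was the single distal pair called lower, of 175 fitted and with 0 higher (limma adjusted p = 0.0284). Lower calls made up 3.17% of the 3123 pairs in that fit. All its wild-type values lie below the smallest value of knockout replicate 3 (0.117%), where such a share was not detectable. TRAV5-1 with TRAJ40 held 0.0158%, 0.126% and 0.0241%, and with TRAJ12 it held 0.111%, 0.0315% and 0%. The high value thus came from a different wild-type library in each of these pairs.

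TRAV7-1 with TRAJ9 held 0.0317%, 0.110% and 0.0241% in wild type, and with TRAJ33 it held 0.0158%, 0.0315% and 0.0722%; each stood at 0.0180% in knockout replicate 1. TRAV7-1 with TRAJ12 held 0%, 0.0157% and 0.0963%. TRAV3-1 with TRAJ37 held 0.0158%, 0.0315% and 0.0241%, and its pairs with TRAJ9 and TRAJ48 were each above 0 in 2 wild-type libraries. TRAV6-1 with TRAJ27 and TRAV2 with TRAJ7 were each listed at 0.0158%, 0.0157% and 0.0241%, the smallest value of every wild-type library. TRAV6-1 with TRAJ23 was above 0 in 2 of them (0.0158% and 0.0472%) and TRAV6-1 with TRAJ21 in replicate 2 only (0.0629%). TRAV2 with TRAJ38 and with TRAJ11 was found in replicate 3 only, at 0.0481% each. TRAV6-2 with TRAJ31 and with TRAJ23 was found in replicate 1 only, at 0.0317% each, and TRAV6-2 with TRAJ22 stood at the smallest value of replicates 1 and 2. Pairs at a library's smallest value made up 48.8%, 55.1% and 71.7% of the distal pairs above 0 in wild-type replicates 1 to 3, so many single pairs rest on the least that a library could list.

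In the knockout the distal joins differed between libraries. In replicate 1 they used 5′ J segments for 5.88%, middle ones for 41.2% and 3′ ones for 52.9%, while all other V segments of that library used them for 68.1%, 23.8% and 8.06%. The mean Traj number was 21.5 for the distal segments and 44.7 for the others, a difference of -23.2 against -5.64, -4.76 and -4.80 in wild type. In replicate 2 all distal joins, 5 pairs of TRAV5-1 and TRAV6-1, used 5′ J segments (TRAJ58, TRAJ57, TRAJ52, TRAJ45 and TRAJ43), with a mean Traj number of 52.0 against 48.3 for the others. Replicate 3 had 3 distal pairs, TRAV2 with TRAJ43 and with TRAJ9 and TRAV7-1 with TRAJ52. Their mean Traj number was 34.7 against 48.7 for the others. In replicate 1 the distal values thus lay outside the wild-type range on the side away from the 5′ J segments (mean Traj number 24.4 to 27.6 in wild type). In replicates 2 and 3, with only 5 and 3 pairs, they lay outside it on the opposite side. No distal pair was above 0 in more than 1 knockout library.

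In knockout replicate 1 the low mean Traj number was not shared by most V segments. Of 73 V segments with a share of at least 0.1% there, 7 had a mean Traj number below 30, TRAV1 and TRAV5-1 among them, and the median was 40.7. The lowest 5 were TRAV8N-2, TRAV1, TRAV7D-3, TRAV5-1 and TRAV14N-3, of which TRAV7D-3 is a near neighbour of the distal group. The 10 next V segments had a mean Traj number of 36.9 and used 5′ J segments for 51.1% of their joins.

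The distal pairs of knockout replicate 1 were mostly found in wild-type replicate 1 too. Of its 33 distal pairs 30 (90.9%) were above 0 in wild-type replicate 1, against 23 (69.7%) in replicate 2 and 9 (27.3%) in replicate 3, although replicate 2 listed more distal pairs (118 against 84). The 30 made up 35.7% of the distal pairs of wild-type replicate 1. Between wild-type libraries, the share of one library's distal pairs found in another ran from 28.0% (replicate 2 in replicate 3) to 60.7% (replicate 1 in replicate 2), with 43.2% of replicate 2 and 43.3% of replicate 3 found in replicate 1. Of the pairs found in a single wild-type library, knockout replicate 1 held 5 of 25 from replicate 1, 0 of 52 from replicate 2 and 0 of 19 from replicate 3. Among all other V segments it held 35.3%, 14.7% and 16.7% of such pairs, against 20.0%, 0% and 0% of the distal ones. In both sets the figure was highest for wild-type replicate 1. The difference between the sets was not tested. The remaining 3 pairs, TRAV3-1 with TRAJ42 and with TRAJ17 and TRAV6-1 with TRAJ50, were in no wild-type library. In knockout replicate 1, 32 of the 33 distal pairs stood at the smallest value, 0.0180%, and TRAV1 with TRAJ15 at 0.0361%. Among all other V segments 77.6%, 67.9% and 59.7% of the pairs of knockout replicate 1 were found in wild-type replicates 1 to 3. By J class these were 69.1%, 63.4% and 60.7% for 5′, 78.9%, 70.0% and 61.7% for middle and 93.5%, 73.8% and 54.1% for 3′ J segments. Of the 14 distal pairs with a middle J segment, wild-type replicates 1 to 3 held 14, 11 and 6. Of the 17 with a 3′ J segment they held 16, 12 and 3, and of the 2 with a 5′ J segment 0 each. The part of this sharing in the distal share and J profile of knockout replicate 1 was not tested.

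**Figure D5:**
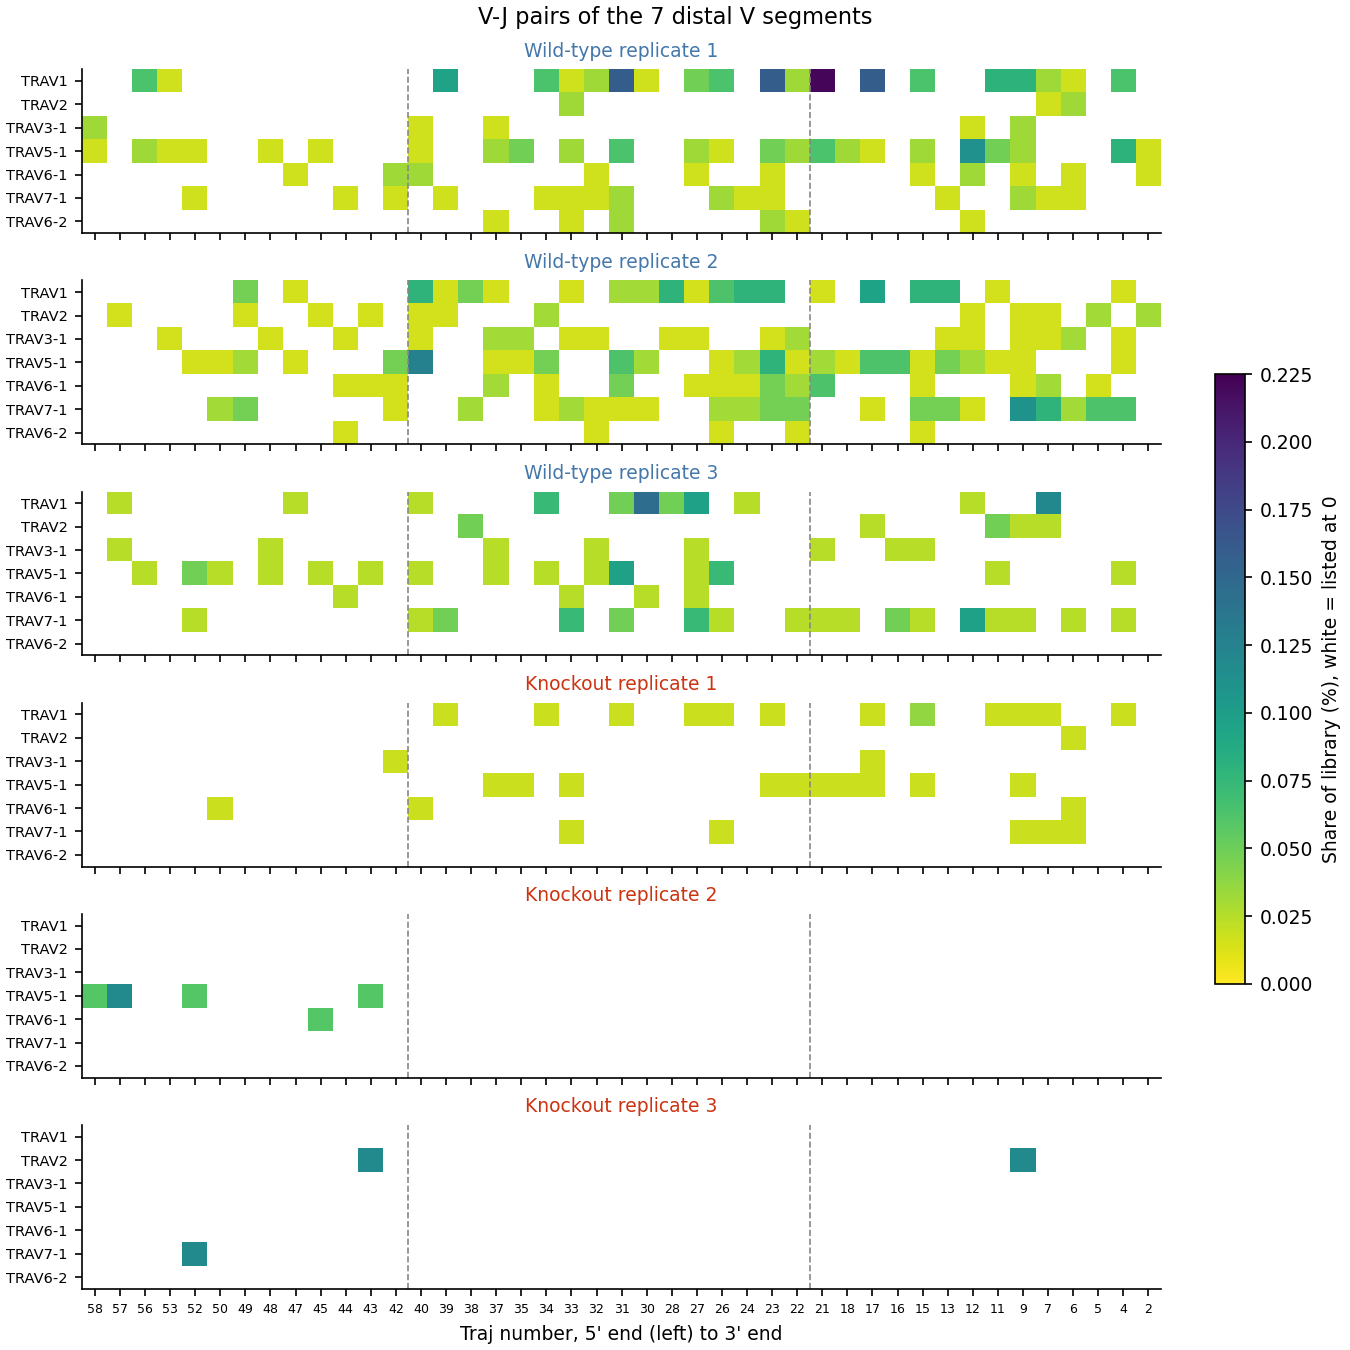
V–J pairs of the 7 distal V segments (rows) along the J array (columns, Traj number, 5′ end left) in each library; colour is the share of the library (%), white is listed at 0, and dashed lines separate 5′, middle and 3′ J segments. Wild-type replicates 1 to 3 hold 84, 118 and 60 pairs, and the knockout libraries 33, 5 and 3; the 5 pairs of knockout replicate 2 all lie left of the first dashed line.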

How the data were processed

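The members and lists were chosen with earlier results of these data known. Thymocyte Tcra libraries, 3 per genotype, were used; the other chains were not used here. The deposited values are in percent: the cells of a table sum to 100, and whether reads or clonotypes were counted is not stated. The authors trimmed reads with fastp, per the submitters' processing notes; how reads were aligned and assigned to segments is not stated there. All values were whole multiples of a library's smallest value within 0.01 of a multiple, but counts were not reconstructed, so no counting intervals were made.

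V shares, V–J pairs (mean of at least 0.1% over 6 libraries) and J positions (mean of at least 0.1% in wild type) were tested in limma (version 3.58.1, under R 4.3.3), the first 2 on log2(percent + 0.0157), the smallest value of the finest library. Benjamini-Hochberg adjustment ran over all features of a kind, with calls at 0.05. The fits were tested on simulated data. The text describes all 7 segments, the 3 pairs of each with the highest wild-type means, called pairs, TRAV1 with TRAJ33, and the 5 V segments most alike in share and in J profile. Python 3.11.15, numpy 2.4.6, pandas 2.3.3, Biopython 1.88 and matplotlib 3.10.9 were used. Transcripts and positions are from GENCODE M21; 114 of 117 V segments were matched by name.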

Additional observations from a re-analysis of the deposited data

How the results depend on the processing

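The difference in summed distal share (-2.60 percentage points) ranged from -2.99 to -2.27 when each library was left out. It was -3.32 with each pair counted once and -1.67 without TRAV1. With pairs at or above 0.117% only, rescaled to percentages of the kept pairs, it was -0.85. The limma count of 4 called V segments (3 higher, 1 lower) became 1 with the smaller pseudocount (1 higher), 18 with the larger one (4 higher, 14 lower), 7 without a filter (3 higher, 4 lower) and 0 with each pair counted once (18 at an unadjusted p under 0.05). With each library left out it ranged from 0 to 14: it was 0 without wild-type replicate 1, 2 or 3 (14, 14 and 16 at an unadjusted p under 0.05), 2 without knockout replicate 2, 13 without knockout replicate 1 and 14 without knockout replicate 3. The limma count of 72 called pairs (46 higher, 26 lower) became 42 with the smaller pseudocount, 140 without a filter (41 higher, 99 lower) and 37 after centring (9 higher, 28 lower), and ranged from 7 to 79 with each library left out (12, 7 and 24 without wild-type replicates 1, 2 and 3). The 11 J position calls became 0 with each pair counted once (17 at an unadjusted p under 0.05) and ranged from 5 to 10, with 5 without wild-type replicate 3. The J position difference of TRAV3-1 ranged from -2.07 to 0.67 with each wild-type library left out, turning positive without replicate 2. That of TRAV5-1 ranged from -3.80 to 0.45, turning positive without replicate 1, and was 0.23 with each pair counted once. The cause of these changes was not tested.

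With replicates of equal number as a replicate block 15 V segments were called (3 higher, 12 lower) and 84 pairs, and TRAV1, TRAV3-1, TRAV5-1, TRAV6-1 and TRAV7-1 were called lower (limma adjusted p from 0.0124 to 0.0356). Equal numbers were not taken as a pairing in the main fit. Over V segments the residuals of equal-numbered libraries correlated at 0.318, -0.0367 and 0.184, where 0.1 in all 3 was required. Those of unequal number ran from -0.340 to 0.172. Over pairs, equal-numbered libraries correlated at 0.0634, 0.135 and 0.170, each above every unequal-numbered value (-0.157 to 0.0356). With so few libraries these values cannot settle whether the libraries are paired.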
